A study of Homo sapiens with 12 samples.

Results

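The 10 genes described here encode proteins that make the messenger IP3, release calcium from the endoplasmic reticulum in answer to it, pump the calcium back or sense that the store has emptied. They are the phospholipase C genes PLCB2, PLCB3, PLCB4 and PLCG2, the IP3 receptor genes ITPR1, ITPR2 and ITPR3, the pump genes ATP2A2 and ATP2A3, and the calcium sensor gene STIM1. They were found by symbol among the 61906 genes of both count tables, and all 10 were present and passed the filter on low counts in every comparison. The 10 symbols were selected on earlier results of these same libraries, and the log2 fold changes of both comparisons below are taken as the values that chose them. Their levels and changes are therefore given as a description, without a p-value for any of them, and the number of them that passed a threshold is set beside the share of all genes that did.

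In this pathway a receptor at the cell surface activates a phospholipase C, which splits the membrane lipid PIP2 into diacylglycerol and IP3. The beta isoforms are driven by G protein-coupled receptors and the gamma isoforms by tyrosine kinases. IP3 opens the IP3 receptors, which are calcium channels of the endoplasmic reticulum built from several subunits, and calcium flows into the cytosol and, at contact sites, towards mitochondria. SERCA pumps, encoded by the ATP2A genes, refill the store, and STIM1 opens ORAI channels of the plasma membrane when the store runs low. In cells of the myeloid lineage this route carries signals from chemokine, complement and Fc receptors.

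RNA was sequenced from the human cell line MOLM-14, derived from an acute myeloid leukemia with KMT2A rearranged and FLT3 internally duplicated, in 4 groups of 3 libraries that the labels call biological replicates. The shControl and shDDX5 groups were infected by spinoculation with a lentivirus for a control shRNA or for 1 shRNA against the RNA helicase gene DDX5, and were collected 96 hours after infection. The other groups, for which the labels name no virus, were exposed to 0.1% DMSO or to RX-5902 at 100 nM, both for 6 hours. RX-5902 is a small molecule reported to bind phosphorylated DDX5. Only 1 shRNA against DDX5 was used and DDX5 was not put back, so loss of the helicase and off-target action of that shRNA cannot be told apart, and the spread between 3 cultures of 1 line says nothing of other leukemias.

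DDX5 stood at 718 to 755 CPM (read counts relative to the TMM-scaled library total) in the shControl libraries and at 159 to 164 CPM in the shDDX5 libraries, so the knockdown labels held in all 6. It lay at 854 to 868 CPM in DMSO and at 1020 to 1110 CPM in RX-5902. All 12 markers of myeloid leukemia identity had reads in each group, with FLT3 at 257 to 443 CPM and SPI1 at 113 to 190 CPM. The monocyte marker CD14 lay between 0 and 7.20 CPM. In the compound experiment CD14 did not pass the filter on low counts, and 11 of the 12 were tested. The summed CPM of these 12 genes was 4470 to 4810 in shControl, 13600 to 15000 in shDDX5, 1710 to 1730 in DMSO and 1760 to 1810 in RX-5902, and the lysozyme gene LYZ alone ranged from 250 to 13700 CPM. At an adjusted p under 0.05 in edgeR, 6 of the 12 were higher after the knockdown, LYZ (log2 fold change 1.92) among them. Another 5 were lower, among them MEIS1 (-2.73) and HOXA9 (-1.62), where 56.7% of all tested genes were called. Total counts ran from 17603589 to 19674098 in the knockdown libraries and from 20264250 to 20367575 in the compound libraries. 1 library stood apart: shDDX5 replicate 1 differed from the other shDDX5 libraries with a chi-square per gene of 46.3 and 46.4, against 1.68 to 5.93 for every other pair of replicates. It also had the highest mitochondrial share of counts, at 10.3% against 8.09% and 7.71% in the other shDDX5 libraries. The knockdown changes of the 10 genes, their differences from the compound and the counts of the pathway lists are given with and without it where it moves them.

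The widest changes were those of PLCB4 and ITPR3 in the knockdown, while ITPR1 was the most abundant IP3 receptor RNA in all 4 groups. In shDDX5 cells PLCB4 RNA went from the edge of detection to 17.2-fold above shControl, ITPR3 was 8.07-fold lower and ITPR2 2.59-fold lower, while ATP2A2 was 1.58-fold and STIM1 1.94-fold higher. After RX-5902 the changes of these named genes were smaller, and for PLCB4, ITPR2 and ATP2A2 they ran the other way. PLCB3, ITPR1 and STIM1 were higher and ITPR3 lower in both comparisons, though ITPR1 after the knockdown in only 2 of 3 libraries. In bulk RNA, fewer cells that express a gene and less of its RNA per cell cannot be told apart. The promoters of PLCB3, ITPR1 and ITPR3 are shown because these genes changed in 1 direction in both comparisons; they are RefSeq sequences on GRCh38.p14, plus strand, from 250 bases before the start site to 50 after it, at chr11:64251280-64251579, chr3:4493098-4493397 and chr6:33621072-33621371. Capitals mark each GC box, GGGCGG or its reverse complement CCGCCC.
PLCB3: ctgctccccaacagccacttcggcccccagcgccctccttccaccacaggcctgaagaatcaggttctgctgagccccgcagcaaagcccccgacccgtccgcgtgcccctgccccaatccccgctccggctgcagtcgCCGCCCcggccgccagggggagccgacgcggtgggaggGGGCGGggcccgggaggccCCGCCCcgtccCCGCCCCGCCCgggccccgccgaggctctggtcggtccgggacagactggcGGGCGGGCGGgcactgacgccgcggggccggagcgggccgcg
ITPR1: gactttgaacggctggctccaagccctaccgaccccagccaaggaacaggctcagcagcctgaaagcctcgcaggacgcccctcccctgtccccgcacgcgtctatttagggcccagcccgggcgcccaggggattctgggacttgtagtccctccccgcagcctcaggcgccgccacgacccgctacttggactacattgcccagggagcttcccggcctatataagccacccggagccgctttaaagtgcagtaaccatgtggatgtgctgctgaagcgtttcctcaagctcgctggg
ITPR3: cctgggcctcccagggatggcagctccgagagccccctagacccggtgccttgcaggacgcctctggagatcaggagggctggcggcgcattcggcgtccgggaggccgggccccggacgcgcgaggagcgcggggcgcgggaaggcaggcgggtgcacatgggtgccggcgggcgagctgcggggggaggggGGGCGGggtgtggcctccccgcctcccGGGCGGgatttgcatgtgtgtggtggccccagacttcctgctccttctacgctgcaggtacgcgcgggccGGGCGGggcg

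The PLCB3 window held 7 GC boxes, of which 2 pairs overlap, the ITPR3 window held 3 and the ITPR1 window held 0, while 45% of 35116 RefSeq promoters of this length hold at least 1. The windows of PLCB3 and ITPR3 were rich in G and C, at 79.3% and 76%, and that of ITPR1 had 63.3%, against a median of 58.7%. They carried 37, 33 and 19 CpG dinucleotides, against a median of 14. Both strands were also searched for CCAAT (in 34.6% of promoters), CACGTG (7.26%), TATAAA (11.5%) and TGANTCA (7.71%). PLCB3 had 1 CCAAT, which overlaps no GC box, and the remaining searches found no match in these 3 windows. A match is a stretch of letters and no evidence of binding, and no match says only that these letters are not in the window. So the windows of these 3 genes had a CpG count above the median and differed in their GC boxes. STIM1 also changed in 1 direction in both comparisons, but its several windows are not shown. They held 38, 7, 26 and 40 CpG dinucleotides, and the window with 7 lay below the median, with 55.7% G and C. PLCG2, ATP2A2 and STIM1 also had an entry in the promoter table, and PLCB2, PLCB4, ITPR2 and ATP2A3 are named only.

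PLCB4 (ENSG00000101333.19, chr20:9067825-9504593 on GRCh38) encodes a beta isoform best known from neurons and the retina. In the 3 shControl libraries it stood at 1.64, 1.63 and 1.33 CPM, from 33, 33 and 27 reads, and in the 3 shDDX5 libraries at 27.3, 26.6 and 25.5 CPM, from 480, 470 and 488 reads. The groups were far apart and the shDDX5 libraries lay within a narrow band, replicate 1 included. The fitted log2 fold change was 4.10 (SE 0.12, n = 3 libraries per group), from a mean of 1.53 ± 0.175 (SD) to 26.4 ± 0.902 CPM. After the compound PLCB4 went the other way, from 1.62, 1.87 and 2.01 CPM in DMSO to 0.868, 1.15 and 0.922 CPM in RX-5902. The groups did not overlap, but the RX-5902 values rest on 18, 24 and 19 reads (log2 fold change -0.90, SE 0.22).

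PLCB3 (ENSG00000149782.13, chr11:64251530-64269150), a widely expressed beta isoform activated by Gq and by G protein beta-gamma subunits, was higher in both comparisons. It was at 41.4, 43.8 and 44.6 CPM in shControl and at 55.5, 75.7 and 78.1 CPM in shDDX5. In CPM all shDDX5 libraries thus lay above all shControl libraries, with replicate 1 the lowest of them. In TPM, the level relative to the library total after division by gene length, replicate 1 (27.7) lay just below the shControl libraries (27.8 to 31.4). It was at 29, 32.4 and 29.6 CPM in DMSO and at 44.8, 45.8 and 46.4 CPM in RX-5902, again without overlap. The log2 fold changes were 0.69 (SE 0.13) for the knockdown and 0.59 (SE 0.06) for the compound. The difference between them was 0.08, with a 95% interval from -0.19 to 0.36.

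PLCB2 (ENSG00000137841.12, chr15:40278176-40307935), the main beta isoform of blood cells and a target of chemoattractant receptors, showed no separation of groups. Its level was 108, 111 and 113 CPM in shControl and 79.9, 110 and 107 CPM in shDDX5, where only replicate 1 stood clearly below. It was 66.4, 67.4 and 58.8 CPM in DMSO and 65.8, 65.2 and 68.8 CPM in RX-5902. The log2 fold changes were -0.16 (SE 0.13) and 0.05 (SE 0.05), and without shDDX5 replicate 1 the first was -0.03. PLCB2 shares 357 exon bases (4.86% of its own) with the antisense gene PLCB2-AS1, which had 3 to 12 reads per library.

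PLCG2 (ENSG00000197943.12, chr16:81779279-81962685), the gamma isoform that acts downstream of SYK and BTK in B cells and myeloid cells, was lower after the knockdown. It stood at 14.6, 11.4 and 11.5 CPM in shControl and at 5.74, 8.77 and 8.09 CPM in shDDX5, without overlap (log2 fold change -0.73, SE 0.18). Replicate 1 again gave the lowest value, and without it the change was -0.57. In the compound experiment the values were 10.4, 9.16 and 8.97 CPM in DMSO and 8.78, 8.92 and 8.68 CPM in RX-5902. The RX-5902 values all lay below the DMSO values, by a small margin (log2 fold change -0.11, SE 0.09). On the same strand PLCG2 shares 4141 exon bases (22.6% of its own) with ENSG00000289733, which had 0 reads in every library, and how reads in those bases were assigned is not given in the sources used here. The summed B cell markers were at 7.11 to 8.04 CPM in shControl and 5.34 to 6.36 CPM in shDDX5. MS4A1 was at 0 in all 12 libraries. Of the 3 B cell markers tested in the knockdown 0 were called, with log2 fold changes of -0.74 (CD22), -0.42 (FCRLA) and 0.64 (PAX5). The summed platelet markers were at 15.2 to 16.3 and 6.19 to 7.20 CPM, with PF4 and PPBP at 0. GP1BA (-2.99) and TREML1 (-1.36) were called lower there, and TUBB1 (0.74) was not called. The part of these markers in the result was not tested.

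**Figure D1:**
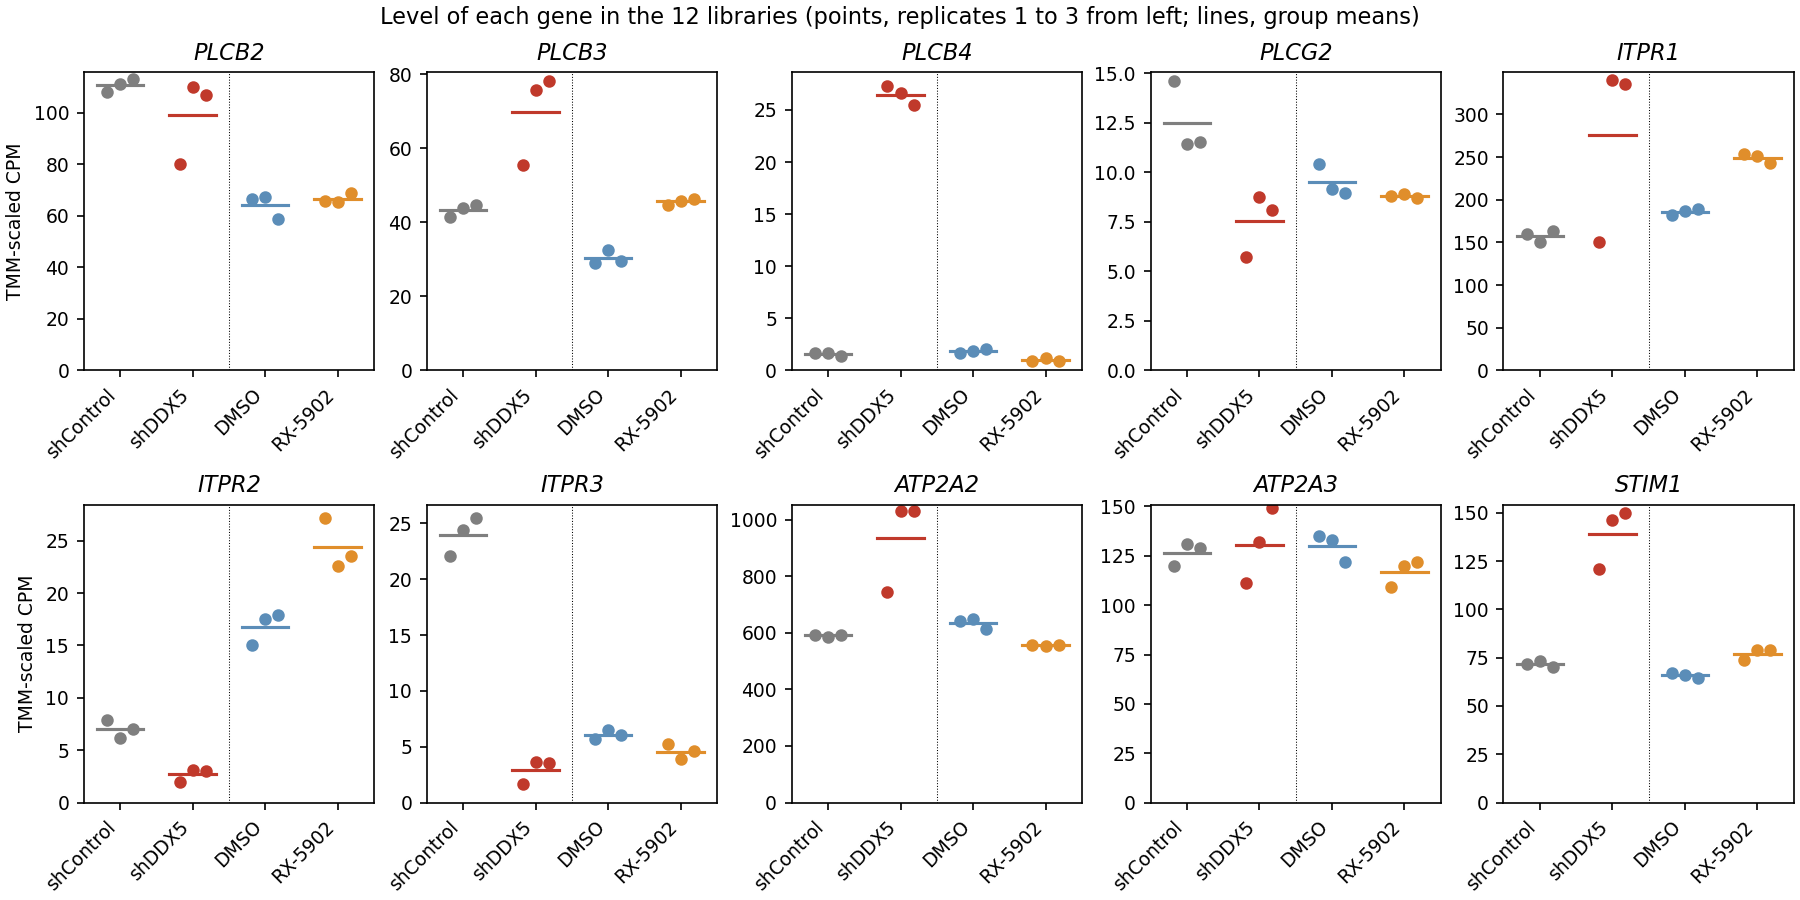
Level of each of the 10 genes in TMM-scaled CPM, on a linear axis of its own from 0, in the 4 groups; points are libraries, replicates 1 to 3 from left to right, lines are group means and dotted lines part the experiments. PLCB4 and ITPR3 show wide gaps between shControl and shDDX5, and the left shDDX5 point of ITPR1 (150 CPM) lies among the shControl points while the others (340 and 336 CPM) lie far above.

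ITPR3 (ENSG00000096433.11, chr6:33620365-33696574) encodes the type 3 IP3 receptor, known for its place at contacts between the endoplasmic reticulum and mitochondria. It stood at 22.1, 24.4 and 25.5 CPM in shControl and at 1.70, 3.62 and 3.55 CPM in shDDX5, which is 24.0 ± 1.73 against 2.96 ± 1.09 CPM (SD, n = 3). The shDDX5 values, from 30, 64 and 68 reads, were below every shControl value, and the fitted log2 fold change was -3.01 (SE 0.22), or -2.74 without shDDX5 replicate 1. After the compound it was lower by a smaller amount, at 5.66, 6.48 and 6.02 CPM in DMSO and 5.21, 3.88 and 4.61 CPM in RX-5902 (log2 fold change -0.41, SE 0.12). The DMSO and RX-5902 libraries did not overlap, although the gap between the nearest of them was small, and without RX-5902 replicate 2 the change (-0.30) no longer passed the threshold.

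ITPR3 overlaps UQCC2, an assembly factor of respiratory complex III, on the opposite strand, and 1025 exon bases, 10.4% of those of ITPR3, belong to both. UQCC2 was at 29.4, 35.7 and 34.7 CPM in shControl, 49.3, 37.3 and 36.4 CPM in shDDX5, 42.7, 43.2 and 44.2 CPM in DMSO and 29, 30.1 and 31.6 CPM in RX-5902. In the knockdown it was thus not lower where ITPR3 was lower (log2 fold change 0.30, SE 0.14), and in the compound experiment both were lower (-0.52, SE 0.06 for UQCC2). The strand setting of the counting is not given in the sources used here, and reads in the shared bases cannot be told apart. UQCC2 had 591 to 882 reads per library, against 30 to 517 for ITPR3.

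ITPR2 (ENSG00000123104.12, chr12:26335352-26833194) encodes the type 2 receptor, which has the highest affinity for IP3 of the family. It was at 7.92, 6.21 and 7.00 CPM in shControl and 1.99, 3.11 and 3.03 CPM in shDDX5, from 35, 55 and 58 reads in the latter (log2 fold change -1.37, SE 0.19). In the compound experiment it was at 15.0, 17.5 and 17.9 CPM in DMSO and 27.2, 22.6 and 23.5 CPM in RX-5902 (0.54, SE 0.08). So ITPR2 was lower in every shDDX5 library and higher in every RX-5902 library than in the controls of the same experiment.

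ITPR1 (ENSG00000150995.21, chr3:4493345-4847506), the type 1 receptor and the main one of the brain, was the most abundant of the family here. It stood at 160, 150 and 163 CPM in shControl and at 150, 340 and 336 CPM in shDDX5. Replicates 2 and 3 were far above the control level, and replicate 1 lay at the bottom of the control range, so the groups overlapped. The log2 fold change was 0.80 (SE 0.27) with all libraries and 1.10 without shDDX5 replicate 1. When any other library was left out in turn, ITPR1 no longer passed an adjusted p of 0.05 in edgeR, with a log2 fold change of 0.62 to 0.82. The compound gave an even shift, from 182, 187 and 189 CPM in DMSO to 254, 251 and 243 CPM in RX-5902 (0.42, SE 0.04).

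As shares of the summed IP3 receptor RNA, in TPM (the level relative to the library total after division by gene length), ITPR1 made up 62.6 ± 1.19% in shControl and 94.4 ± 0.608% in shDDX5 (SD, n = 3). ITPR3 made up 31.0 ± 1.93% and 3.34 ± 0.116%, and ITPR2 6.45 ± 0.764% and 2.28 ± 0.511%. The 3 shDDX5 libraries gave 93.7, 94.7 and 94.8% ITPR1. In replicate 1 all 3 receptor genes were lower than in the other shDDX5 libraries, and a share this near 100% can hardly move. In the compound experiment ITPR1 had 76.1 ± 1.17% in DMSO and 77.8 ± 1.70% in RX-5902, which overlap, and ITPR3 had 8.06 ± 0.375% and 4.63 ± 0.556%. With the length of the longest transcript in place of the summed exons, ITPR1 took 83.5% in shControl and 98.0% in shDDX5, and ITPR3 13.1% and 1.10%. The direction was the same on both lengths, while the size of each share depends on the length used.

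**Figure D2:**
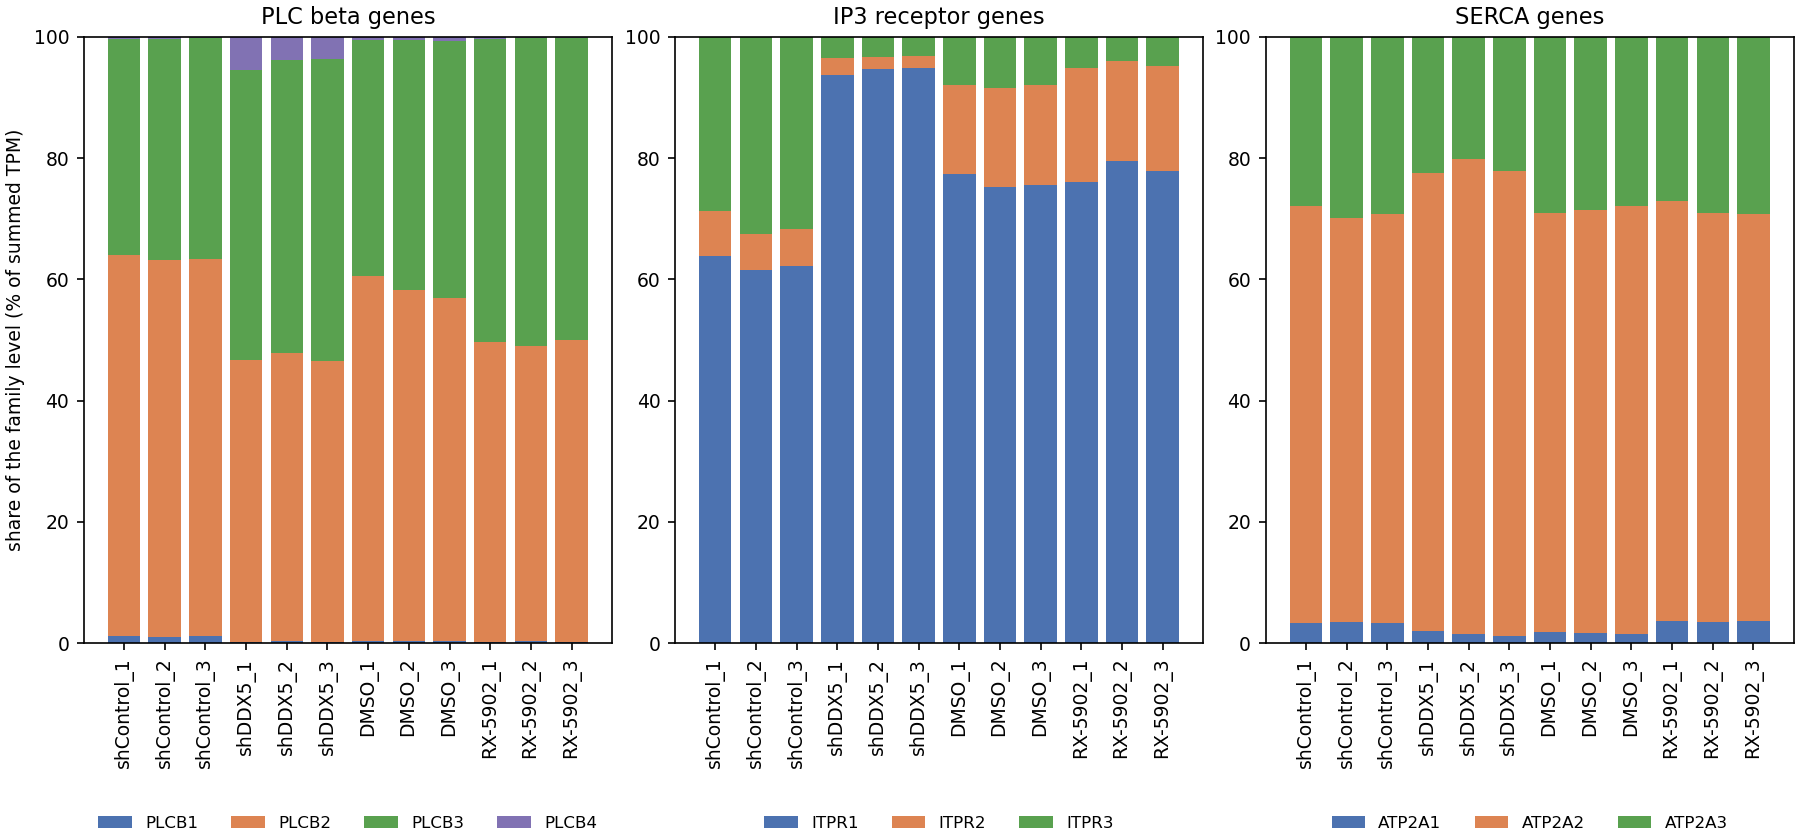
Share of the summed TPM of a gene family, in percent, as 1 stacked bar for each of the 12 libraries, for the PLC beta, IP3 receptor and SERCA genes; colors are genes. ITPR1 (blue, centre) fills 93.7 to 94.8% of the bar in the 3 shDDX5 libraries, against a mean of 62.6% in shControl, and PLCB3 (green, left) widens in shDDX5 and RX-5902.

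Within the beta phospholipases PLCB2 had 62.4 ± 0.321% of the summed TPM in shControl and 46.7 ± 0.681% in shDDX5, and PLCB3 had 36.1 ± 0.379% and 48.7 ± 1.06%. PLCB4 held 0.295 ± 0.0403% and 4.34 ± 0.916%, or 11.0% in shDDX5 with the longest transcript length, so even there it was a minor beta isoform. In the compound experiment PLCB2 went from 58.2 ± 1.82 to 49.3 ± 0.569% and PLCB3 from 40.8 ± 1.68 to 50.2 ± 0.473%. In both treated groups PLCB3 thus held more of the beta RNA, and PLCB2 less, than in the control. Which of them led depends on the length used: with the longest transcript PLCB2 held 51.3% and PLCB3 37.2% in shDDX5, and 57.9% and 41.0% in RX-5902. PLCG2 had 10.5 ± 1.96% of the gamma RNA in shControl and 17.3 ± 2.11% in shDDX5, although its own level was lower, because PLCG1 was lower by more (log2 fold change -1.55, SE 0.20).

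ATP2A2 (ENSG00000174437.18, chr12:110280756-110351093) encodes SERCA2, the housekeeping pump of the endoplasmic reticulum, and was the most abundant of the 10. It stood at 593, 586 and 593 CPM in shControl and 745, 1030 and 1030 CPM in shDDX5. The groups were apart, and replicate 1 was the lowest of the shDDX5 libraries (log2 fold change 0.66, SE 0.13, or 0.80 without it). In the compound experiment it was slightly lower, at 643, 649 and 614 CPM in DMSO and 557, 554 and 557 CPM in RX-5902 (-0.19, SE 0.04).

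ATP2A3 (ENSG00000074370.18, chr17:3923870-3964464) encodes SERCA3, a pump of lower calcium affinity found in blood cells, platelets among them. It was at 120, 131 and 129 CPM in shControl and 111, 132 and 149 CPM in shDDX5, with overlap (log2 fold change 0.05, SE 0.11). Its sign in the knockdown depended on single libraries, from -0.05 without shDDX5 replicate 3 to 0.15 without shDDX5 replicate 1. In the compound experiment it was at 135, 133 and 122 CPM in DMSO and 109, 120 and 122 CPM in RX-5902 (-0.15, SE 0.05). These groups met at their edges, and the change no longer passed the threshold without RX-5902 replicate 1 (-0.10). ATP2A2 thus took 67.6 ± 1.17% of the SERCA RNA in shControl and 76.9 ± 1.46% in shDDX5, and ATP2A3 28.9 ± 1.03% and 21.6 ± 1.29%.

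STIM1 (ENSG00000167323.13, chr11:3854527-4093210), the sensor of store calcium, was at 71.7, 73.1 and 70.0 CPM in shControl and 121, 146 and 150 CPM in shDDX5. Every shDDX5 library was well above every shControl library (log2 fold change 0.95, SE 0.10). It was at 67.2, 66.0 and 64.7 CPM in DMSO and 73.6, 78.9 and 78.7 CPM in RX-5902, a smaller shift without overlap (0.22, SE 0.05). Its paralog STIM2, a sensor that responds to smaller drops in store calcium, was lower in shDDX5 (-0.65, SE 0.08). STIM1 therefore made up 58.3 ± 1.05% of the summed STIM RNA in shControl and 80.9 ± 1.05% in shDDX5, and 60.0% in both DMSO and RX-5902.

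**Figure D3:**
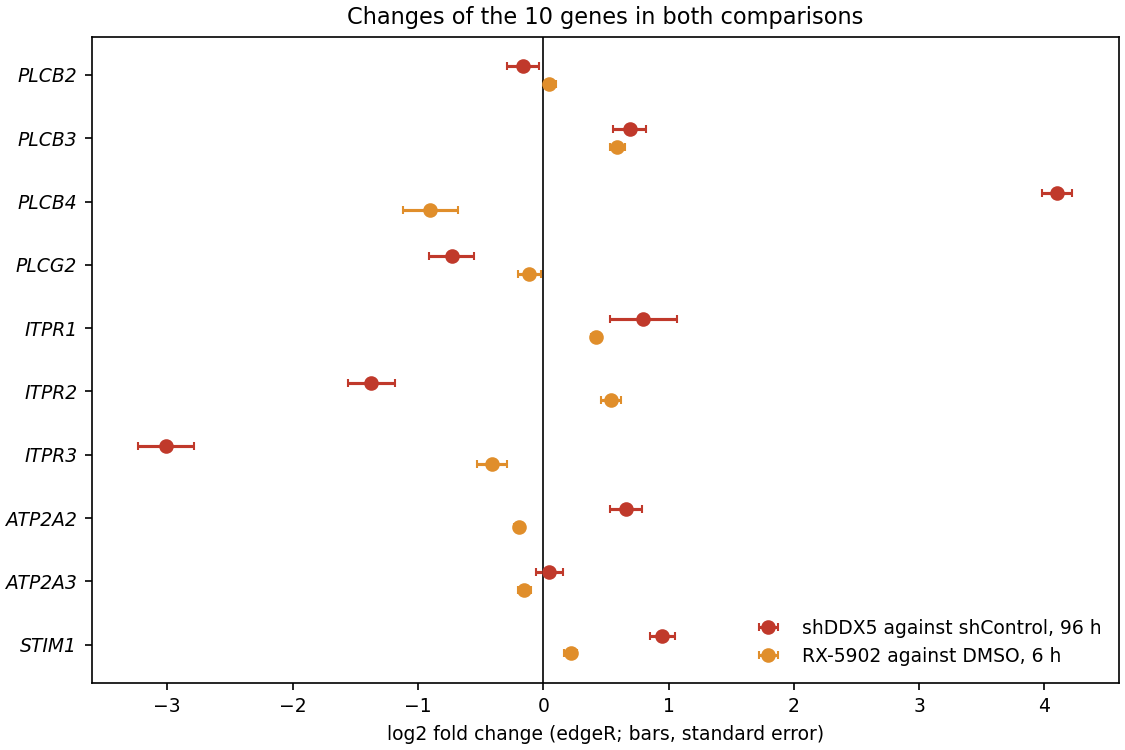
Log2 fold change of each of the 10 genes on the x axis, for shDDX5 against shControl (red) and RX-5902 against DMSO (orange), from edgeR fits of 3 libraries per group; bars are 1 standard error to each side. PLCB4 (4.10 and -0.90) and ITPR2 (-1.37 and 0.54) lie on opposite sides of 0, and ITPR3 (-3.01 and -0.41) lies below 0 in both.

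By edgeR at an adjusted p under 0.05 over all genes, 5 of the 10 genes were higher and 3 lower after the knockdown, where 56.7% of 14463 tested genes were called (28.4% higher, 28.3% lower). After the compound 4 were higher and 4 lower, where 64.1% of 13941 tested genes were called (32.2% higher, 31.9% lower). In CPM the groups did not overlap for 7 of the 10 in the knockdown and for 8 of the 10 with the compound. Of all tested genes, 66.1% (32.2% higher, 34% lower) and 67.4% (34% higher, 33.4% lower) did not overlap. Since the genes were picked with these contrasts known and most genes moved, nothing is read from these counts. The median log2 fold change of the 10 was 0.35 in the knockdown and -0.03 with the compound, against 0 and 0.01 over all genes tested.

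The change by knockdown was also set against the change by the compound in 1 model of all 12 libraries. Its calls share their libraries with the comparisons above and are likewise a description. The knockdown change exceeded the compound change for PLCB4 (log2 difference 4.98, SE 0.22), ATP2A2 (0.83, SE 0.13) and STIM1 (0.71, SE 0.10). It was below it for ITPR3 (-2.63, SE 0.26), ITPR2 (-1.93, SE 0.20) and PLCG2 (-0.64, SE 0.19). These 6 passed an adjusted p of 0.05, as did 52.7% of 15386 genes (24.1% higher, 28.6% lower). For ITPR1 the difference was 0.36, with a 95% interval from -0.20 to 0.92. For ATP2A3 the interval ran from -0.07 to 0.43 and for PLCB2 from -0.50 to 0.03. Without shDDX5 replicate 1 the differences of ITPR1 (0.67), ATP2A3 (0.29) and PLCB3 (0.23) also passed. Those of ATP2A2 and STIM1 were 0.98 and 0.81. The calls over all genes rose as well, from 8108 (3710 higher, 4398 lower) to 9537 (4489 higher, 5048 lower). The number of genes tested in that fit is not given here, so nothing is read from these added calls. PLCG2 (-0.47) passed there too, but not after a correction for gene length (-0.30). The experiments also differ in virus, time and dose, and these cannot be told apart in the difference.

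Per length, in TPM, the order of the 10 genes in shControl ran from ATP2A2 at 147 ± 3.28 (SD, n = 3) through ATP2A3 at 62.8, PLCB2 at 51.5, PLCB3 at 29.8, STIM1 at 20.3, ITPR1 at 16.8, ITPR3 at 8.31, PLCG2 at 2.33 and ITPR2 at 1.73 to PLCB4 at 0.242 ± 0.0237. No 2 neighbours in this order overlapped. In shDDX5 the order was ATP2A2 at 200 ± 57.4 (134, 233 and 234), ATP2A3, PLCB3, PLCB2, STIM1, ITPR1 at 25.7 ± 12.3 (11.5, 33.1 and 32.6), PLCB4 at 3.55 ± 0.378, PLCG2, ITPR3 at 0.898 and ITPR2 at 0.577. Here ATP2A2 was apart from ATP2A3, and PLCB4 from its neighbours on both sides, while the 5 genes from ATP2A3 to ITPR1 overlapped in sequence, as did PLCG2, ITPR3 and ITPR2. On this scale shDDX5 replicate 1 lay below the shControl mean for all of the 10 but PLCB4 and STIM1. ATP2A2, ITPR1 and PLCB3 (27.7 against 29.8) were among those below. PLCB4 had moved from the last place to above PLCG2, ITPR3 and ITPR2.

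In DMSO the order was ATP2A2 at 162 TPM, ATP2A3 at 66.0, PLCB2 at 30.6, PLCB3 at 21.4, ITPR1 at 20.3, STIM1 at 19.2, ITPR2 at 4.23, ITPR3 at 2.15, PLCG2 at 1.81 and PLCB4 at 0.297, and only PLCB3 and ITPR1 overlapped. In RX-5902 it was ATP2A2 at 153, ATP2A3 at 64.3, PLCB3 at 34.8, PLCB2 at 34.3, ITPR1 at 29.3, STIM1 at 24.2, ITPR2 at 6.64, PLCG2 at 1.82, ITPR3 at 1.75 and PLCB4 at 0.172. PLCB3 and PLCB2 overlapped there, and so did PLCG2 and ITPR3. The controls of the experiments were not alike: ITPR3 was at 8.31 TPM in shControl and 2.15 in DMSO, and ITPR2 at 1.73 and 4.23. Virus, time and experiment cannot be told apart in that contrast. With the length of the longest transcript, ATP2A2 stayed first in every group and PLCB4 last in all but shDDX5. ITPR1 then ranked higher, since its summed exons (32120 bases) far exceed its longest transcript (10197 bases), and took place 5 in shControl, 3 in shDDX5, 3 in DMSO and 2 in RX-5902.

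Most of these genes are long, and the library that stood apart was lower for long genes. Summed exon length was above the median of tested genes, 4723 bases, for all 10, from 4957 bases for PLCB3 to 32120 for ITPR1. In shDDX5 replicate 1, genes under 2000 bases were higher than in replicates 2 and 3 by a median of 0.22 on the log2 scale, and genes of 8000 bases or more had a median difference of -0.29. The same bins differed by -0.01 and 0.03 between shControl replicate 1 and the other shControl libraries. Of the 10 genes 9 were lower in shDDX5 replicate 1 than in replicates 2 and 3, ITPR1 by the most (log2 difference -1.17), then ITPR3 (-0.89), while PLCB4 was level (0.07) despite 21611 bases of exon. Before the log 0.5 CPM was added to each level, which shrinks the differences of genes at a low level, such as ITPR3 and ITPR2. The part of length in the differences was not tested.

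**Figure D4:**
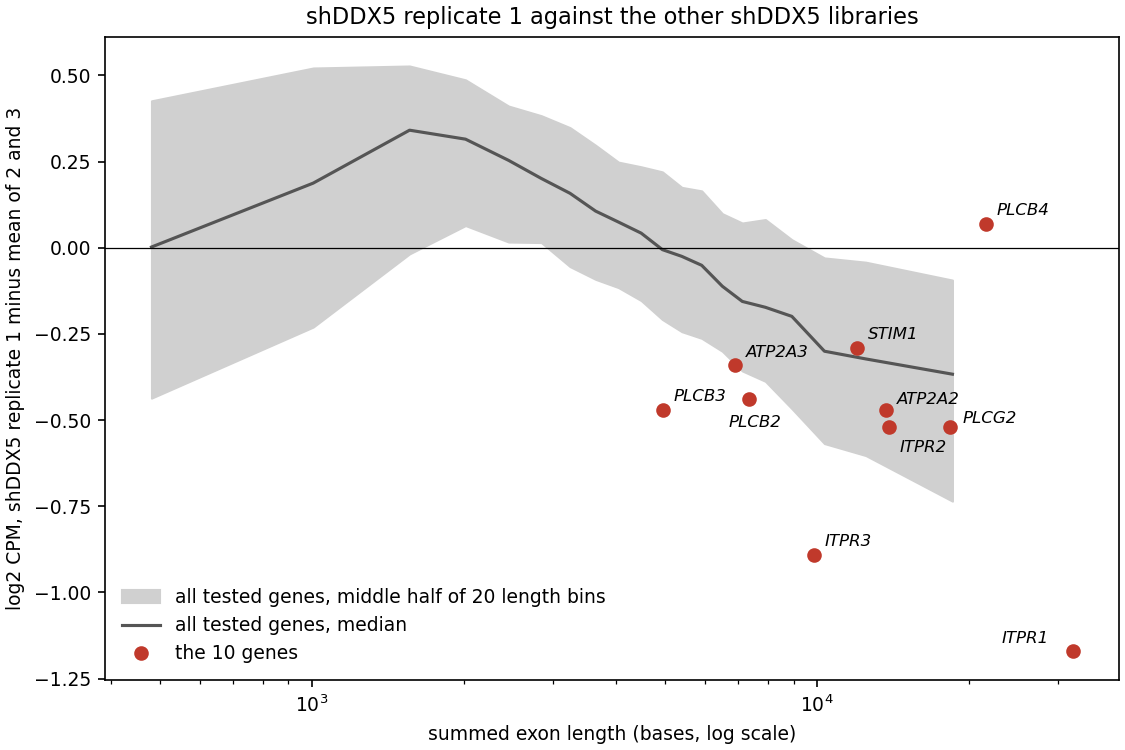
Log2 of CPM plus 0.5 in shDDX5 replicate 1, minus log2 of the mean CPM of replicates 2 and 3 plus 0.5. The x axis is summed exon length in bases on a log axis. The line is the median and the band the interquartile range of all tested genes in bins of length. Red points are the 10 genes. Above about the median length the line falls with length, ITPR1 (-1.17) and ITPR3 (-0.89) lie below the band and PLCB4 (0.07) above it.

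Without shDDX5 replicate 1 the knockdown changes were 4.08 for PLCB4, 0.83 for PLCB3, 1.10 for ITPR1, -1.20 for ITPR2, 0.80 for ATP2A2 and 1.04 for STIM1 on the log2 scale. Each of these kept its direction. With that library left out, 6 of the 10 were higher and 3 lower, ATP2A3 (0.15) being the addition, and 71.4% of all tested genes were called.

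PLCB4 and ITPR3 were compared with 10000 other genes over the 12 libraries by the Pearson correlation of log2 CPM, as a description only, since all points come from the same 4 groups. The genes most like PLCB4 were the prolyl isomerase gene FKBP14 (r = 0.993), the nucleoside triphosphatase gene NTPCR (0.992) and the protease inhibitor gene SLPI (0.991). For ITPR3 they were the adenylyl cyclase gene ADCY3 (0.973), the septin gene SEPTIN8 (0.973) and TAF1C (0.956), a subunit of an RNA polymerase I initiation factor. These genes follow the same steps between groups.

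The rest of the pathway was counted with 12 lists, which were drawn up with earlier results of these data known. All calls are edgeR's at an adjusted p under 0.05 over all genes, to be read against the shares of 56.7% and 64.1% given above. Among 6 other phospholipase C genes tested in the knockdown, 2 were higher and 3 lower (median log2 fold change -0.85, against 0 over all genes): PLCG1 (-1.55, SE 0.20) and the Ras-linked PLCE1 (-1.01, SE 0.14) fell and PLCD3 (0.80, SE 0.14) rose. With the compound 1 of 5 was higher, PLCD3 (1.74, SE 0.10), and 1 lower, PLCE1 (-1.53, SE 0.09). PLCD3 and PLCE1 thus had the same direction in both.

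Of 17 G proteins, their regulators and receptors upstream of the beta isoforms, 7 were higher and 4 lower in the knockdown (median 0.31), and 5 and 5 of 14 with the compound (median 0.04). GNAQ, the Gq alpha subunit that activates the beta isoforms, fell in the knockdown (-1.0, SE 0.11), and RGS1, which speeds the shut-off of G proteins, rose in both (1.23, SE 0.12 and 0.77, SE 0.07). The nucleotide receptor gene P2RY2 rose in the knockdown (0.86, SE 0.12) and fell with the compound (-1.67, SE 0.04). It shares 3361 exon bases (37.5% of its own) with ENSG00000260401 on the same strand, and how reads there were assigned is not given. On the tyrosine kinase route to the gamma isoforms, 5 of 17 were higher and 7 lower in the knockdown (median 0.08), and 8 of 15 were higher and 4 lower with the compound (median 0.12). The adaptor gene LAT2 fell in both (-1.13, SE 0.09 and -0.42, SE 0.04), the adaptor gene TYROBP rose in the knockdown (1.43, SE 0.18), and SYK, the kinase that activates PLCG2, fell with the compound (-0.40, SE 0.04).

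Among enzymes that supply PIP2 or break down IP3, 7 of 20 were higher and 8 lower in the knockdown (median -0.30), and 12 of 20 were higher and 2 lower with the compound (median 0.25, against 0.01 over all genes). INPP5A, a phosphatase that ends the IP3 signal, rose in the knockdown (1.84, SE 0.09). PIP5K1C, a kinase that makes PIP2 (1.46, SE 0.04), and ITPKA, a kinase that converts IP3 (1.66, SE 0.13), rose with the compound, and the inositol phosphatase gene IMPA2 fell in both (-1.15, SE 0.17 and -0.50, SE 0.08). In the diacylglycerol arm, 3 of 17 were higher and 4 lower in the knockdown (median -0.04), and 7 of 16 were higher and 4 lower with the compound (median 0.18). RASGRP2, an exchange factor for Rap1, rose slightly in the knockdown (0.30, SE 0.09) and fell with the compound (-1.41, SE 0.05).

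Of the store-operated entry partners of STIM1, 3 of 8 were higher and 3 lower in the knockdown (median -0.13), and 4 of 7 were higher and 2 lower with the compound (median 0.22). The channel gene ORAI3 rose in both (1.84, SE 0.15 and 0.86, SE 0.11), CRACR2A, a regulator of ORAI channels, fell in both (-1.36, SE 0.15 and -0.65, SE 0.05), and ORAI1 fell with the compound (-0.39, SE 0.06). On the same strand ORAI3 shares 1397 exon bases (52.9% of its own) with ENSG00000261487. How reads in those bases were assigned is not given in the sources used here. Among other pumps and exchangers, 2 of 9 were higher and 3 lower in the knockdown (median -0.15), and 4 of 8 were higher and 1 lower with the compound (median 0.18). The muscle pump gene ATP2A1 fell in the knockdown (-0.70, SE 0.14) and rose with the compound (0.95, SE 0.11), opposite in both to ATP2A2. SLC8B1, the sodium and calcium exchanger of mitochondria, rose in the knockdown (1.26, SE 0.09).

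Among other release channels and regulators of IP3 receptors, 4 of 9 were higher and 0 lower in the knockdown (median 0.31), and 2 of 9 were higher and 3 lower with the compound (median -0.02). ERP44, which inhibits the type 1 receptor from inside the store, rose in the knockdown (1.17, SE 0.10), and RYR2, a ryanodine receptor best known from heart muscle, fell with the compound (-0.67, SE 0.07). The calcium-binding chaperones of the store split by comparison: 4 of 9 were higher and 3 lower in the knockdown (median 0.13), and 1 of 9 was higher and 6 lower with the compound (median -0.51). The calreticulin gene CALR fell in both (-0.89, SE 0.09 and -0.98, SE 0.04), whereas HSPA5, which encodes BiP, rose in the knockdown (0.98, SE 0.08) and fell with the compound (-0.94, SE 0.04).

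For calcium uptake by mitochondria, 4 of 11 were higher and 3 lower in the knockdown (median 0.09), and 3 of 11 were higher and 6 lower with the compound (median -0.13). The uniporter gene MCU rose in both (1.33, SE 0.09 and 0.19, SE 0.05). Its inhibitory paralog MCUB fell in the knockdown (-0.94, SE 0.17) and rose with the compound (0.32, SE 0.07). In the calmodulin, calcineurin and NFAT list, 7 of 20 were higher and 5 lower in the knockdown (median 0), and 12 of 19 were higher and 4 lower with the compound (median 0.30). CAMK2D rose in the knockdown (0.80, SE 0.08), CAMKK2 fell in both (-0.70, SE 0.10 and -0.42, SE 0.04), and the calcineurin regulator gene RCAN3 rose with the compound (0.93, SE 0.08). Of 12 calcium channels of the plasma membrane and lysosome, 4 were higher and 5 lower in the knockdown (median -0.25), and 6 and 2 with the compound (median 0.17). The lysosomal channel gene MCOLN1 rose in the knockdown (1.74, SE 0.09), P2RX4 rose in both (1.29, SE 0.09 and 0.49, SE 0.05) and TRPM2 fell in both (-0.71, SE 0.15 and -0.45, SE 0.04).

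**Figure D5:**
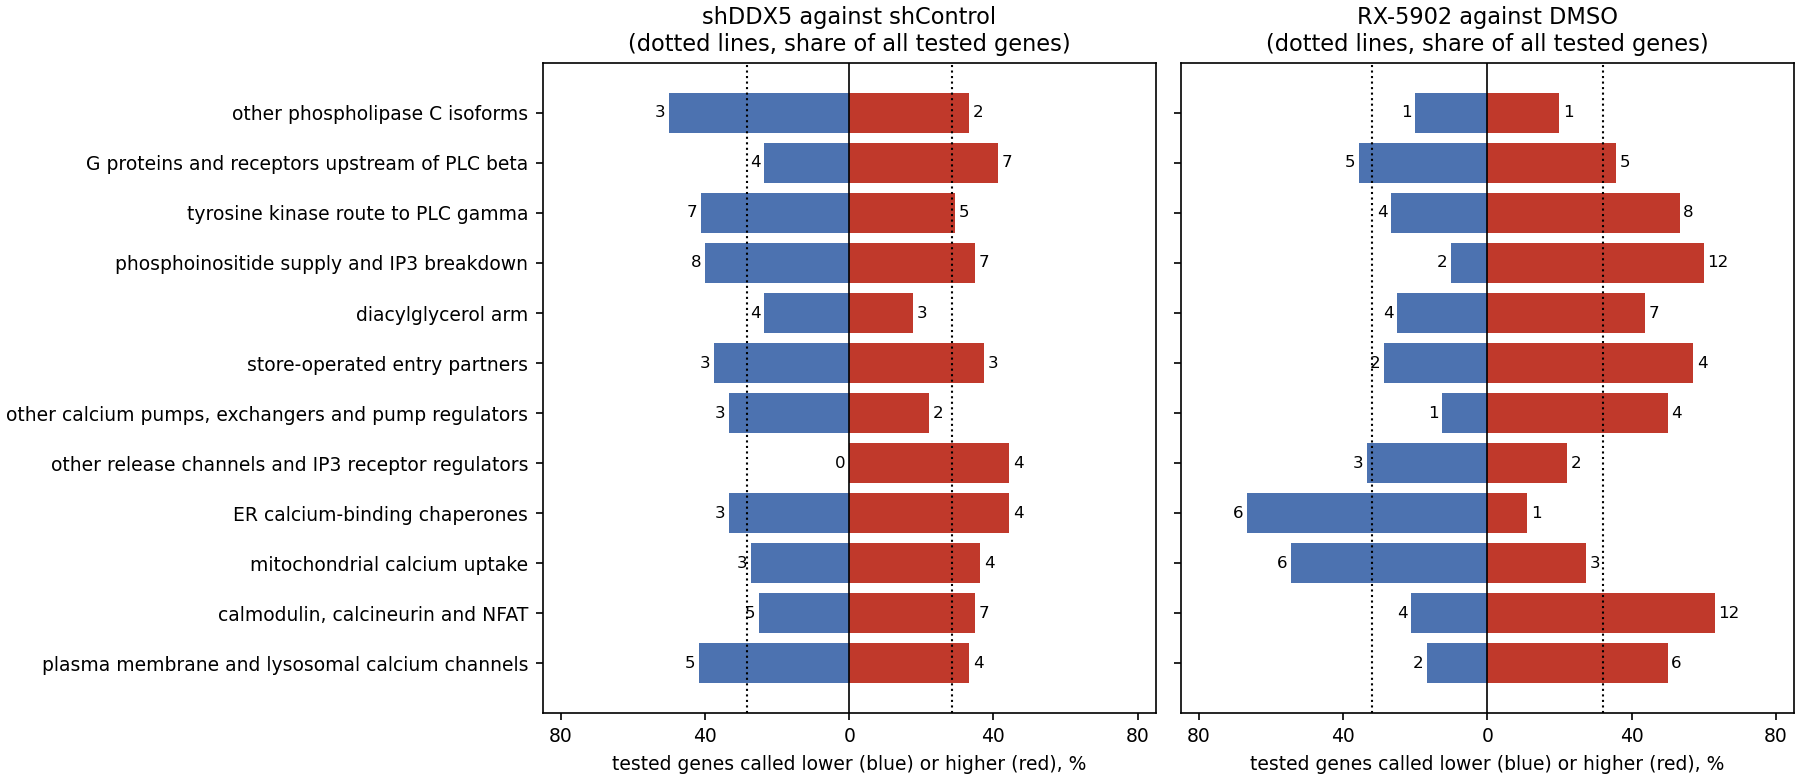
Percent of the tested genes of each of the 12 pathway lists that edgeR called lower (blue, to the left) or higher (red, to the right), for the knockdown and the compound; figures at the bars are gene counts and dotted lines give the percent of all tested genes (28.3% and 28.4%, 31.9% and 32.2%). With the compound, the phosphoinositide enzymes (12 of 20) and the calmodulin list (12 of 19) reach far past the line on the right and the store chaperones (6 of 9) on the left.

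Without shDDX5 replicate 1 edgeR called 71.4% of all 14916 tested genes in the knockdown (35.7% in each direction), and these list counts are to be read against that share. The diacylglycerol arm then had 8 of 17 genes higher and 6 lower, the tyrosine kinase route 9 of 18 and 7, the other pumps and exchangers 4 of 9 and 3, mitochondrial uptake 4 of 11 and 5, and the calmodulin list 8 of 20 and 8. The phosphoinositide enzymes had 8 of 20 higher and 11 lower, the G proteins and receptors 8 of 17 and 6, the store chaperones 6 of 9 and 3, and the channels 4 of 12 and 6. The counts of the other phospholipase C genes, the store-operated entry partners and the release channels and receptor regulators were the same with and without it. All 44 list genes that the naming rule picks in the knockdown were called in the same direction without that library, and 1, SARAF, moved by over 1.5 times (0.31 to 0.18).

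The summed markers of some other cell types differed between the groups of both experiments. The summed T and NK cell markers were at 70.3 to 75.8 CPM in shControl, 109 to 162 in shDDX5, 15.4 to 16.5 in DMSO and 23.6 to 26 in RX-5902, with CD3G at 0 in every library. Within this list only NKG7 was higher in the knockdown (log2 fold change 1.08, SE 0.16). GNLY (-0.38, SE 0.12) and CD3D (-2.54, SE 0.44) were lower, so the sum follows NKG7 and not the list as a whole. With the compound NKG7 (0.61, SE 0.07) was the only gene of this list tested. The summed packaging, epithelial and fibroblast markers were at 4.10 to 4.34, 10.9 to 11.9, 1.01 to 1.10 and 1.81 to 2.22 CPM in the same order, with COL3A1, DCN and LUM at 0. The B cell markers summed to 3.05 to 3.38 CPM in DMSO and 4.62 to 5.79 in RX-5902. The platelet marker sums of DMSO (3.23 to 4.26 CPM) and RX-5902 (2.86 to 3.62) overlapped. Erythroid markers summed to at most 0.148 CPM. Their part in these counts was not tested.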

How the data were processed

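The authors deposited unnormalized counts of reads for each gene, in 1 table per experiment with the summed exon length and exon coordinates of each gene on GRCh38. Per the submitters' processing notes, the tools included STAR 2.7.9a and featureCounts (Subread 2.0.3) on GRCh38.p13, beside Trim Galore 0.6.7 and Picard 2.8.0; the annotation release, strand setting and treatment of duplicates are not given in the sources used here. Libraries were made with an MGIEasy Fast RNA kit, per the labels' protocols. The line of 1 gene was wrapped in both tables and was rejoined.

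Groups and replicate numbers came from the labels, and p-values measure only the spread between the 3 labelled replicates. The experiments were fitted separately, 6 libraries each, in edgeR 4.0.16 (R 4.3.3), with filterByExpr, TMM scaling and the two-sided quasi-likelihood F test. Calls needed an adjusted p under 0.05 (Benjamini-Hochberg, all tested genes). The difference between the comparisons used all 12 libraries and 4 group means. Standard errors came from the F statistic. The 95% intervals used a normal quantile of these errors, so they are narrower than the F test itself would give. The procedure was also run on simulated counts with 1 dispersion for all genes. No library was set apart in them, so that run does not bear on shDDX5 replicate 1. TPM was computed from the counts and summed exon lengths. Alternatives were RLE size factors, DESeq2 1.42.0, other filters, a replicate block and a length correction by loess on exon length. Further ones were 1 fit of all libraries and leaving out each library. Chosen after seeing the data were the GENCODE release 29 longest transcript as length, and the list counts and list genes without shDDX5 replicate 1.

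The 10 genes and the 12 pathway lists were chosen with earlier results of these data known. The naming rule takes the 10 genes, DDX5, exon-sharing partners and the 3 genes most like PLCB4 and ITPR3. From each list it takes up to 2 called genes per direction with the smallest p and a mean of at least 5 CPM. Not all of these list genes are printed. Partners of ITPR1, ITPR2 and STIM1, and RN7SKP176 of PLCG2, are not printed either. Each of them shared at most 2.08% of the exon bases and had at most 26 reads in a library. Promoters are from RefSeq; 6 of the 10 genes had an entry.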

Additional observations from a re-analysis of the deposited data

How the results depend on the processing

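PLCB4, PLCB3, ITPR2, ITPR3, ATP2A2 and STIM1 kept direction and call in the knockdown under every alternative run, and all counts of genes called stayed within 1.5 times the reported ones. With libraries left out in turn, ATP2A3 in the knockdown ranged from -0.05 to 0.15 and PLCB2 with the compound from -0.02 to 0.08 on the log2 scale, so neither has a settled sign. In 1 fit of all 12 libraries, 3 of the 10 genes were higher with the compound and 1 lower, in place of 4 and 4. ITPR1 (0.46), ITPR3 (-0.37), ATP2A2 (-0.15) and ATP2A3 (-0.11) were not called there, and the cause was not tested. The calls over all genes moved too. With the compound they ran from 6816 to 9074 over the alternatives without a library left out, against 8943 in the main fit. Of the 10 genes, 5 exceeded the compound change after a length correction, and 3 to 6 with libraries left out (6 without shDDX5 replicate 1), in place of 3; 2 in place of 3 fell below it after the length correction, where ITPR1 (0.73) and ATP2A3 (0.30) gained a call and PLCG2 (-0.30) lost it. ITPR1 (0.36) also gained a call with no filter on low counts. The cause was not tested. Over all genes, the differences called ran from 7626 to 8356 over these alternatives and from 7461 to 9537 with libraries left out. The main fit called 8108, and nothing is read from the counts of the 10 genes. ITPR3 with the compound was not called without RX-5902 replicate 2 (-0.30). With the replicate block, edgeR called 7592 genes in the knockdown and 8696 with the compound, and 5 and 4 of the 10 genes were higher and 3 and 4 lower, as without it; the numbers do not pair the libraries, since same-numbered libraries had correlations of -0.0741 to 0.0345 in the knockdown and -0.041 to 0.016 with the compound. At 18 to 40 reads per library, PLCB4 in DMSO and RX-5902 is limited by depth.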
